A study of Gorilla gorilla with 12 samples.

Results

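The surface markers CD14, MME, THY1, CD44, ENG, NT5E, MCAM, VCAM1, ICAM1 and ALCAM were followed across cultured gorilla fibroblasts, connective tissue cells grown from 11 animals. The members were all probe sets, the groups of short probes that report one transcript, whose annotation gives 1 symbol and that symbol is one of these 10 genes. There were 16 such probe sets of 12625 on the array, for 9 of the 10 genes. CD44 had 7 of them, VCAM1 had 2 and each of the other 7 genes had 1. The one probe set for MCAM carries 2 gene symbols and was not used, so MCAM has no value here. The genes were chosen by family with the intensities of these same arrays known, both their spread between lines and their differences between both cultures of one line, so these are given as a description, without a test.

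The study hybridised total RNA of 12 cultures, 1 array each. One array held KB_7621, the line of a 26-year-old male gorilla called male 2 here, harvested at 50% confluence, when the cells covered part of the dish. The other 11 arrays held 11 lines from 5 males and 6 females, described as normal animals, harvested under the standard conditions of the study, among them KB_7621 again. Males 1 to 5 were 19, 26, 24, 18 and 3 years old, and females 1 to 6 were 19, 19, 35, 26, 30 and 2 years old. Each line is 1 animal and numbers pair nothing, so p-values reflect how single cultures of separate animals vary, and precision is limited by there being so few arrays.

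These proteins are the surface markers by which mesenchymal cells are sorted and by which they hold on to neighbours and matrix. THY1 (CD90), ENG (CD105), NT5E (CD73) and CD44 are shared by cultured fibroblasts and mesenchymal stromal cells in humans, while CD14 is better known from monocytes, where it hands bacterial lipopolysaccharide to Toll-like receptors, and serves as a marker that stromal cells should lack. MME (CD10, neprilysin) cuts small peptides at the cell surface. VCAM1, ICAM1 and ALCAM are adhesion molecules of the immunoglobulin superfamily. VCAM1 and ICAM1 bind leukocyte integrins and are induced by inflammatory cytokines, and ALCAM (CD166) binds itself and CD6 on lymphocytes.

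Intensities were deposited on a linear scale with a floor of 100, and each array had from 40.1% to 49.2% of its probe sets exactly there. A value of 100 is therefore only an upper limit. The probes were designed on human sequence, so a base difference in gorilla lowers an intensity whatever the transcript level, and no gene's level is read against another's. All 11 fibroblast markers with a probe set, among them collagens, lumican and vimentin, passed the filter on dim probe sets. RPS4Y1, a Y-linked gene read as a check of the sex labels, had 2662 to 4363 in the male lines and 100 to 115 in 5 lines labelled female, but 2595 in the line labelled female 3. That line kept its label, and the sex differences are also given without it.

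Of the 16 member probe sets, 12 passed the filter, a mean log2 intensity above the 40th percentile of all probe sets, and so entered the tests beside 7541 probe sets in all. They covered 8 genes. A pair of CD44 probe sets and both VCAM1 probe sets did not pass. Each gene is represented by its brightest probe set unless another is named.

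**Figure D1:**
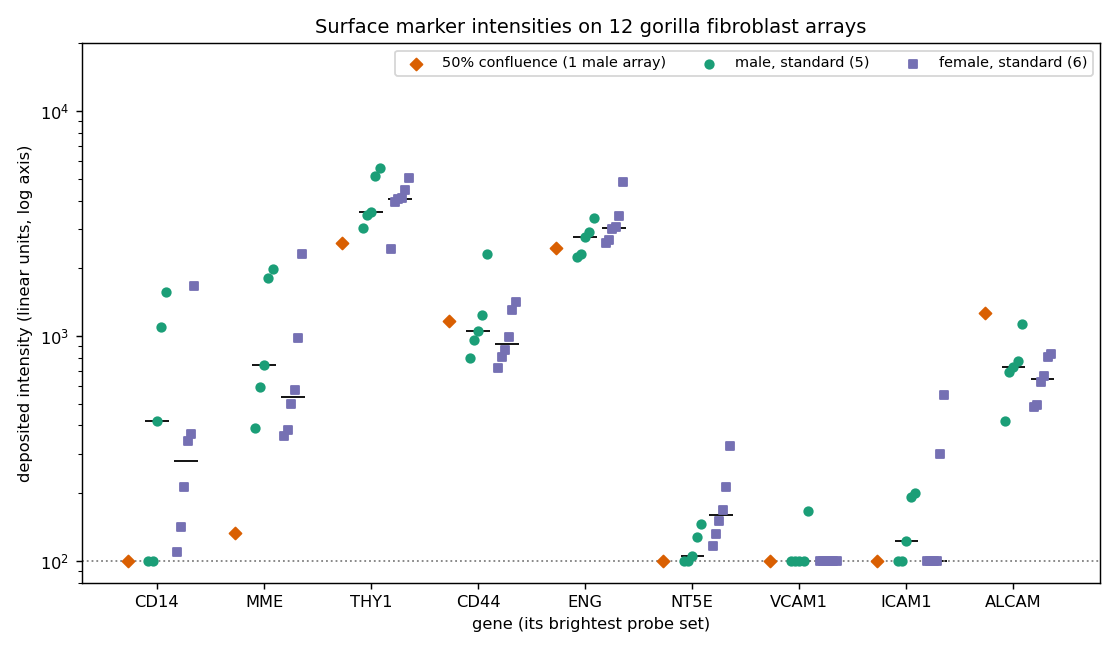
Deposited intensity of each gene's brightest probe set on every array, on a log axis (50% confluence array, male and female standard arrays from left to right for each gene; short lines are medians; the dotted line is the floor of 100). CD14 and MME spread widest between the standard lines, THY1 and ENG lie in narrower bands than these, and VCAM1 stands above the floor in 1 line.

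THY1 and ENG were bright in every line, and ENG varied little. THY1, a small glycoprotein held to the membrane by a lipid anchor, had 3542, 5147, 3019, 5578 and 3457 in males 1 to 5. In the 6 female lines its lowest, median and highest intensities were 2433, 4081 and 5018. The highest standard line had 2.29 times the lowest, and the sexes overlapped. ENG, endoglin, an accessory receptor for TGF-beta and BMP ligands, had 2907, 2309, 2753, 2252 and 3356 in males 1 to 5, and 2584, 3007 and 4860 as lowest, median and highest in the female lines. Female 4 stood highest, and the other 10 lines lay between 2252 and 3418. On the log2 scale after quantile normalization, the SD between the 11 lines was 0.38 for THY1 and 0.27 for ENG, against a median SD of 0.41 over all tested probe sets. The SD of THY1 was above that of 42.9% of tested probe sets, so near the middle, and that of ENG above 13.6%.

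CD14 and MME differed most between lines. CD14 had 100, 419, 1576, 1092 and 100 in males 1 to 5, and 213, 1673, 340, 365, 109 and 141 in females 1 to 6. Female 2, male 3 and male 4 stood above 1000, and the next line below them, male 2, had 419. Its log2 SD of 1.56 was above that of 99.8% of tested probe sets, and between the highest line and the 2 lines at the floor it spanned at least 16.7-fold. MME had 388, 592, 1808, 1976 and 739 in males 1 to 5, and 979, 499, 2325, 359, 383 and 574 in females 1 to 6. The line labelled female 3 and males 4 and 3 were highest, and the highest line had 6.48 times the intensity of the lowest, female 4. In RNA of whole cultures, fewer cells that carry a marker and less of its RNA per cell cannot be told apart. The SD of MME was 0.99, above 98.3% of tested probe sets. Lines high in one gene were not always high in the other, since female 2 led for CD14 with an MME intensity of 499, and the line labelled female 3 led for MME with a CD14 intensity of 340. Over the 11 lines the Pearson correlation of both genes was 0.45 and Spearman's was 0.27.

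**Figure D2:**
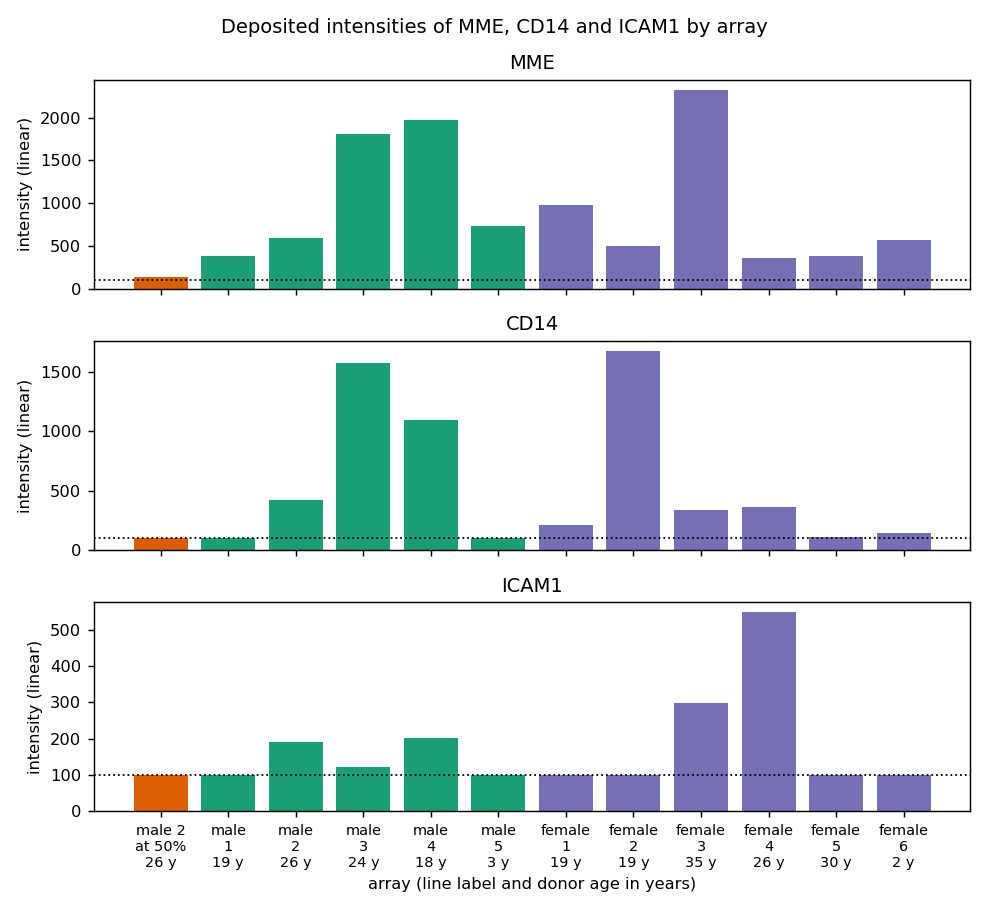
Deposited intensity (linear axis from 0) of MME, CD14 and ICAM1 on each array, with donor age in years under each bar; orange is the 50% confluence array, green the male and violet the female standard arrays, and the dotted line is the floor of 100. Males 3 and 4 are high for both MME and CD14, female 2 for CD14, and the line labelled female 3 for MME.

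The immunoglobulin superfamily members behaved unlike each other. ICAM1 had 100, 192, 123, 201 and 100 in males 1 to 5, and 100, 100, 298, 548, 100 and 100 in females 1 to 6. It was at the floor in 6 of the 11 lines, and female 4 and the line labelled female 3 stood highest. Its log2 SD was 0.82 over all lines and 0.55 without female 4. VCAM1 was at the floor on both probe sets in 10 of 11 standard lines and on the 50% confluence array. The exception was male 5, from the 3-year-old donor, with 166 on one probe set and 103 on the other. ALCAM was above the floor on every array, with 688, 418, 770, 727 and 1135 in males 1 to 5 and 481, 644 and 832 as lowest, median and highest in the female lines. Male 5 was highest and male 2 lowest, and the SD was 0.43.

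NT5E, the ecto-enzyme that makes adenosine from AMP outside the cell, lay close to the floor. It had 100, 146, 100, 127 and 105 in males 1 to 5, and 151, 168, 324, 131, 116 and 212 in females 1 to 6. The groups overlapped, and the line labelled female 3 was highest. Its log2 SD of 0.51 was 0.33 without that line. Over the 8 tested genes the median SD between lines was 0.49, and 3 of them, CD14, MME and ICAM1, lay above 0.68, the 90th percentile of all tested probe sets. On their brightest probe sets, the same 3 genes spanned 4-fold or more over the standard lines, a span that 12.5% of tested probe sets reached. CD44 did so too on 40493_at, which was not its brightest, with a log2 range of 2.11. The place of ICAM1 rested on female 4 and on values at the floor. Its SD was 0.55 without female 4 and 0.46 with a floor of 200, and its next highest line had 298.

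CD44, the receptor for hyaluronan, was read by 7 probe sets that ordered the lines differently. Names ending in _s_at mark probe sets that can match several transcripts. The brightest, 1126_s_at, had 959, 800, 2321, 1237 and 1053 in males 1 to 5 and 721, 925 and 1415 as lowest, median and highest in the female lines. Probe set 40493_at had 947, 750, 1679, 1656 and 1159 in males 1 to 5, and 374, 932 and 1090 as lowest, median and highest in the female lines, with 374 in female 4. Probe set 31472_s_at had 592 to 1840 over the 11 standard lines. Male 3 was highest on all 3 of these, and their pairwise Pearson correlations over the 11 lines were 0.62, 0.79 and 0.83.

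The dimmer CD44 probe sets differed in this. Probe set 2036_s_at had 120 to 366, with male 5 highest, and its correlations with 1126_s_at, 31472_s_at and 40493_at were 0.49, 0.44 and 0.33. Probe set 1125_s_at was at the floor in 6 of 11 standard lines and had 199, 183 and 228 in males 2, 3 and 4. Its correlations with the same 3 were higher, at 0.58, 0.73 and 0.55, and that with 2036_s_at was -0.053. Probe set 31615_i_at did not exceed 131, and 31616_r_at was at the floor on all 12 arrays, so neither informs on the gene. These correlations are across arrays that share no animal but share the array's own scaling.

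**Figure D3:**
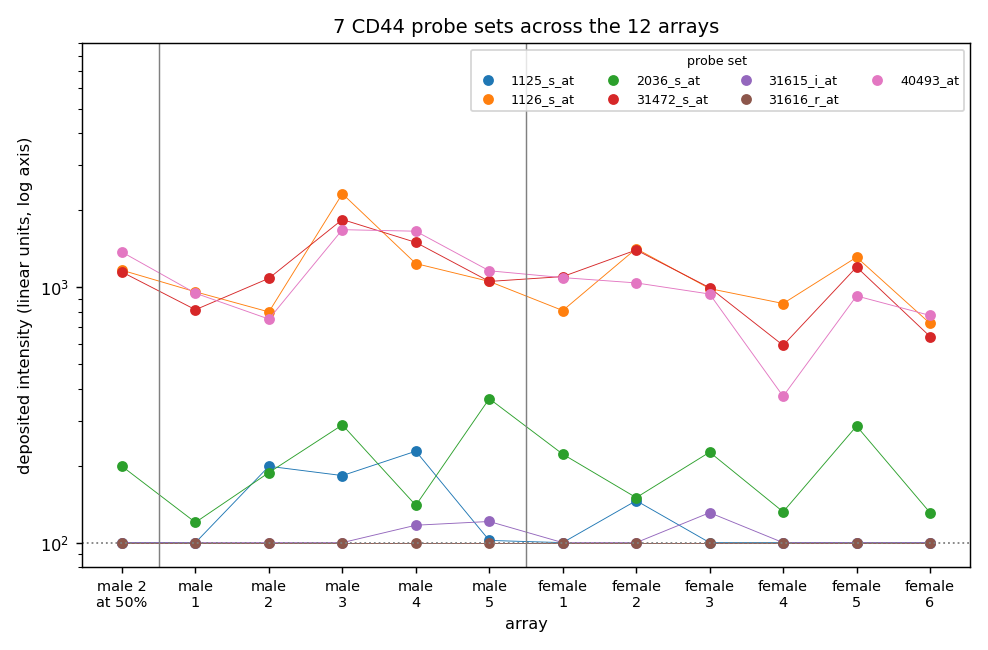
Deposited intensity (log axis) of the 7 CD44 probe sets on each array, with points of one probe set joined by a thin line for reading only. The 3 bright probe sets all peak in male 3, while the dimmer 2036_s_at peaks in male 5 and 31616_r_at stays at the floor of 100.

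By its label, the 50% confluence array is of the same line as the standard array of KB_7621, so both cultures can be compared. The labels give no confluence for the standard culture, so how far both differed in cell density at harvest is not known. With 1 array per condition there is no replicate check and no p-value. ALCAM was higher and MME, CD14 and THY1 lower at 50% confluence. ALCAM had 1259 at 50% confluence, against 418 in the standard culture, and was 3.04-fold higher after normalization. It lay above all 11 standard lines, of which male 5 came nearest with 1135. MME had 133 at 50% confluence, against 592 in the standard culture, and was 3.80-fold lower. It lay below all 11 standard lines, of which female 4 came nearest with 359. CD14 had 100, the floor, at 50% confluence, against 419 in the standard culture, 4.03-fold lower after quantile normalization. THY1 had 2598 at 50% confluence, against 5147 in the standard culture, 2.16-fold lower and still within the range of the standard lines.

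No other gene reached 2-fold between both cultures. ICAM1 had 100 at 50% confluence, against 192 in the standard culture, 1.70-fold lower after quantile normalization. NT5E had 100 at 50% confluence, against 146 in the standard culture, 1.25-fold lower after quantile normalization. Both values at the floor leave the true size of these differences unknown, and the folds also depend on the scaling. ENG had 2459 at 50% confluence, against 2309 in the standard culture, a log2 difference of 0.030. The CD44 probe sets were split, at log2 differences of 0.80 for 40493_at, 0.46 for 1126_s_at, 0.42 for 2036_s_at and -0.027 for 31472_s_at. Probe set 1125_s_at, at the floor at 50% confluence, had 199 in the standard culture. VCAM1 was at the floor in both cultures.

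Among the 8 tested genes, 1 was higher by 2-fold or more at 50% confluence and 3 were lower. Over all tested probe sets 7.04% were higher by that much and 7.23% lower, while 6.83% lay above and 4.76% below the range of the standard lines, as ALCAM and MME did. Since the genes were chosen with these arrays in view, nothing is read from the shares. Both arrays also differed in signal, with 49.2% of probe sets at the floor at 50% confluence and 40.1% in the standard culture. Their 3' to 5' ratios of GAPDH, a measure of RNA quality, were 0.990 and 1.30 in the same order. Median scaling in place of quantile normalization raised the median difference of all tested probe sets to 0.44. With it THY1 was at -0.49, ALCAM at 2.09, CD44 on 1126_s_at at 1.04 and ENG at 0.59. MME was at -1.66, and CD14, ICAM1 and NT5E, at the floor at 50% confluence, were at -1.57, -0.45 and -0.051. All these values include the general shift, and the folds of the genes at the floor are therefore not lower limits under every scaling. The part of array signal in these differences was not tested.

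**Figure D4:**
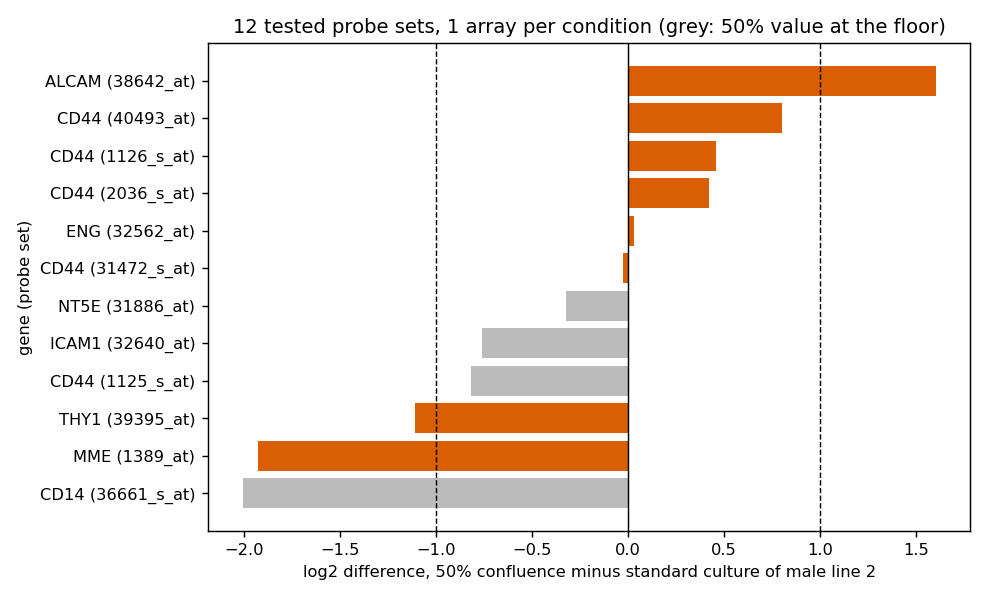
Log2 difference, 50% confluence minus standard culture of male line 2, for the 12 tested probe sets (1 array per condition, quantile-normalized; dashed lines mark 2-fold; grey bars have the 50% confluence value at the floor, so their size is uncertain). ALCAM leads upward at 1.60, and MME and CD14 lead downward at -1.93 and -2.01.

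The line-to-line levels were also set beside the mean of 18 cell cycle genes, which of 13 gene lists had the largest median difference between both cultures of male line 2. At 50% confluence all 18 were higher and 10 reached 2-fold, and the median log2 difference was 1.23. Over all tested probe sets, 3641 of 7541 were higher and 7.04% reached 2-fold higher. The mitotic cyclin gene CCNB2, for example, had 848 at 50% confluence, against 182 in the standard culture. Across the 11 standard lines, CD44 on 1126_s_at and ALCAM had positive Pearson correlations with that mean, 0.67 and 0.64. NT5E had a negative one of -0.69, and ICAM1 and THY1 had -0.52 and -0.49. The other tested CD44 probe sets had weaker values than 1126_s_at, from 0.18 to 0.54. Without the 2 lines farthest from the median of the cell cycle mean, the value was 0.69 for CD44 on 1126_s_at and 0.11 to 0.44 on the others. It was 0.64 for ALCAM, -0.62 for NT5E, -0.52 for THY1 and -0.063 for ICAM1, so that of ICAM1 rested on those lines. For CD14 and MME, which were both lower at 50% confluence, the correlations across lines were only 0.073 and -0.13. CD44 on 1126_s_at also ran against the mean of 8 contractile genes (-0.78, or -0.47 without the 2 farthest lines). The other tested CD44 probe sets had -0.67 to -0.34, or -0.37 to 0.19 without the 2 farthest lines. With the share of an array's probe sets at the floor, the correlation of CD44 on 1126_s_at was 0.64 and that of THY1 was -0.61. Without the 2 farthest lines these came to 0.13 and -0.39. The 18 cell cycle genes had a median male minus female log2 difference of 0.63, with none called. These are descriptions over 11 cultures that differ in age and sex together.

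Neither sex nor donor age was called for any member. limma, a linear model fitted to all tested probe sets with Benjamini-Hochberg adjustment, called 0 of 12 member probe sets for sex and 0 for age. It called 0.0% of all tested probe sets for either, with 5.28% at an unadjusted p under 0.05 for sex and 5.4% for age. The Y-linked RPS4Y1 was thus not called for sex either, with the line labelled female 3 at 2595 among the female lines. Without that line limma called 1 probe set for sex, which was not a member. Among the members NT5E came nearest for sex and was the 1 member probe set at an unadjusted p under 0.05. Its mean intensity was 116 ± 20.3 (SD, n = 5) in the male lines, against 184 ± 76.4 (SD, n = 6) in the female lines. The male minus female log2 difference was -0.66 (SE 0.24, limma adjusted p = 0.888), and -0.12 with a floor of 200, where most of its values are set equal. The 5 tested CD44 probe sets had positive differences of 0.11 to 0.52 on the log2 scale, with limma adjusted p of 0.888 to 0.981. MME was at 0.44 (SE 0.50), CD14 at 0.33 (SE 0.79), ENG at -0.24 (SE 0.19) and THY1 at 0.051 (SE 0.24). ALCAM was at 0.15 (SE 0.26) and ICAM1 at -0.24 (SE 0.43), so on the brightest probe sets only NT5E among the 8 genes differed by more than 2 SE. Without the line labelled female 3, the difference was 0.80 for MME, -0.47 for NT5E, -0.057 for ICAM1, 0.12 for THY1, -0.29 for ENG, 0.37 for CD14, 0.27 for CD44 on 1126_s_at and 0.15 for ALCAM, all uncalled. Other single lines also moved these values, as MME was at 0.15 without male 4 and CD44 on 1126_s_at at 0.036 without male 3.

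With age, ICAM1 had the steepest slope relative to its error. In the model that also held sex, it was 0.41 log2 units per 10 years (SE 0.21, limma adjusted p = 0.901). ICAM1 was at the floor in the donors of 2 and 3 years, and in adults it ranged from 100, the value of the 30-year-old among others, to 548 in a 26-year-old. CD14 had a larger slope with a larger error, 0.51 (SE 0.40, limma adjusted p = 0.937), and among the 9 adults alone the slope was -0.53. The donors of 2 and 3 years had CD14 intensities of 141 and 100, while the oldest, of 30 and 35 years, had 109 and 340. MME had a slope of 0.22 (SE 0.27), and -0.078 without the line labelled female 3. The slopes of the other genes lay between -0.072 for ALCAM and 0.14 for CD44.

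CD14 was set beside the genes of its receptor complex and beside leukocyte markers, since it is itself a monocyte marker. The leukocyte genes PTPRC (CD45), LYZ and FCER1G were at the floor on all 12 arrays. With probes designed on human sequence, a value at the floor does not show that a transcript was absent. Of 13 leukocyte and macrophage genes with a probe set 6 passed the filter. Over the standard lines the lysosomal CD68 had 420 to 1080, CD34 had 200 to 372 and CD3E had 140 to 252. HLA-DRA had 109 to 231, AIF1 had 104 to 239 and CD79A had 100 to 230. The summed intensity above the floor of the 13 was 604 at 50% confluence and 1194 in the standard culture of the same line, 636 to 1194 in male lines and 858 to 1235 in female lines. Over the standard lines CD14 had a Pearson correlation of 0.59 with the mean of the 6 tested genes, or 0.62 without the 2 farthest lines. Spearman's was 0.75. At 50% confluence 3 of the 6, AIF1, CD79A and HLA-DRA, were at the floor, against 230 to 239 in the standard culture. For all 3 genes that standard culture was the highest of the 11 standard lines, and CD79A was at the floor in 7 lines. Each of these 3 genes was more than 2-fold lower at 50% confluence, while 0 of the 6 were higher by that much. Over all tested probe sets 7.23% were lower and 7.04% higher by 2-fold or more. The part of these leukocyte genes in the level of CD14 was not tested. Of the Toll-like receptor list 6 of 11 genes with a probe set passed. TLR4 was not among the 11, so its level is not given. TLR1, TLR2 and TLR5 were at the floor on all arrays, and LY96, the co-receptor of TLR4, had 115 to 392 over the standard lines. The adaptor genes MYD88 and TICAM1 were higher by 2-fold or more after normalization, with deposited intensities of 263 and 292 at 50% confluence, against 160 and 150 in the standard culture, and 0 genes of this list were lower by that much. The correlation of CD14 with the mean of those 6 was 0.66, or 0.71 without the 2 farthest lines.

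The counter-receptors of VCAM1 and ICAM1 were uneven in signal. Their integrin subunits ITGA4, ITGAL and ITGB2 did not exceed 128 on any array, and ITGAM was at the floor on all. ITGA9, another subunit that binds VCAM1, was at the floor in 9 of 11 standard lines and reached 218. ITGB7, a beta subunit that pairs with ITGA4, passed the filter with 100 to 308 and a median of 184 over the standard lines. It had 204 at 50% confluence, against 100, the floor, in the standard culture. SPN (CD43), a leukocyte sialoglycoprotein that can bind ICAM1, had 100 to 744 with a median of 352, and ITGB1, the beta subunit of many matrix receptors, had 2498 to 8336. Among the adhesion ligands and counter-receptors, 19 of 27 genes with a probe set were tested, and 4 were higher and 1 lower by 2-fold or more at 50% confluence. The shares over all tested probe sets were 7.04% higher and 7.23% lower. HAS2, which makes the hyaluronan that CD44 binds, had 289 at 50% confluence, against 100, the floor, in the standard culture. The matrix protease MMP14, which can shed CD44, had 1350 at 50% confluence, against 4927 in the standard culture, 3.98-fold lower.

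Around ENG, 15 of 21 receptor and BMP or TGF-beta pathway genes were tested, with 1 higher and 1 lower by 2-fold. Counts in this paragraph are of 2-fold or more, which 7.04% of all tested probe sets reached upward and 7.23% downward. ID1, a target of BMP signalling, had 12362 at 50% confluence, against 2897 in the standard culture, 5.21-fold higher. That standard value was the lowest of the 11 standard lines, which reached 14062, so 12362 lay within their range. ACVRL1 (ALK1), the receptor that works with endoglin in endothelium, had 173 at 50% confluence, against 442 in the standard culture. Of 12 tested ecto-enzymes and adenosine genes 2 were higher and 2 lower. DPP4, a peptidase of the fibroblast surface, had 355 at 50% confluence, against 1094 in the standard culture, 3.07-fold lower. Of 17 other lipid-anchored and raft proteins 3 were lower and 0 higher, with a median of -0.43. GAS1, a growth arrest gene, had 487 at 50% confluence, against 1569 in the standard culture. Among 11 stromal and pericyte markers 1 was lower, the proteoglycan CSPG4, with 371 at 50% confluence, against 1090 in the standard culture. The standard lines had 144 to 1090 for CSPG4, so male 2 was their highest and 371 lay within their range.

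Of 20 tested genes of the NF-kB response, the pathway by which cytokines induce VCAM1 and ICAM1, 1 was higher and 2 lower by 2-fold or more at 50% confluence. Of all tested probe sets 7.04% were higher and 7.23% lower by that much. The cytokine gene IL1B had 307 at 50% confluence, against 135 in the standard culture, the chemokine gene CCL2 had 100, the floor, against 230, and TNFAIP6 had 185 against 437, in the same order. Across the standard lines the mean of the 20 had correlations of 0.62 with MME and 0.34 with ICAM1, which came to 0.025 and -0.042 without the 2 farthest lines. The cytokine IL6 was highest in the line labelled female 3, at 14499, where MME and NT5E were highest too and ICAM1 had 298, while female 4, highest for ICAM1, had an IL6 intensity of 933. The chemokine gene CXCL8, noticed after its values were seen, was above the floor in the same 3 lines that were highest for MME, with 2133 and 427 in males 3 and 4 and 565 in the line labelled female 3. Of the other lists, 2 of 11 fibroblast markers were higher by 2-fold or more at 50% confluence and 0 lower, 2 of 8 contractile genes were lower and 0 higher, and none of 2 endothelial and 4 epithelial markers reached 2-fold. limma called 0 genes of the 13 lists for sex or age. At an unadjusted limma p under 0.05, their counts ranged from 0 to 6 for sex and 0 to 3 for age. The 6 were among the 18 cell cycle genes, and the lists with 3 were the 20 NF-kB and the 8 contractile genes. Over all tested probe sets the shares were 5.28% for sex and 5.4% for age.

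The genes with the pattern most like a member's were sought for the 3 genes whose brightest probe set spanned 4-fold. They were sought among 6694 tested probe sets with 1 symbol, by Pearson correlation over the 11 standard arrays. For CD14 they were TRAF3 (0.91), the potassium channel gene KCNMA1 (0.89) and AGT, angiotensinogen (0.87), which kept 0.96, 0.85 and 0.84 without female 2 and male 3. Their intensities were at most 258, 308 and 838, with 3, 1 and 4 lines at the floor. For MME they were TLR6 (0.94), RNF5 (0.92) and TSN (0.90), all with low intensities of at most 196, 219 and 251 and at the floor in 7, 5 and 5 lines. For ICAM1 they were NCALD (0.90), STXBP5L (0.87) and MEA1 (0.87). Without female 4 and the line labelled female 3 these came to 0.23, 0.72 and 0.60. NCALD and STXBP5L had at most 238 and 155 and were at the floor in 7 lines each, while MEA1 had 642 to 1676. The highest of so many correlations over 11 arrays is large by its construction.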

How the data were processed

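Expression was measured on 12 one-colour arrays. The authors deposited 1 intensity per probe set and array, in whole numbers on a linear scale with a floor of 100. How they were summarised and scaled, and where the floor comes from, is not stated in the labels or the table. Gene symbols came from the platform annotation, which gave 1 symbol for 10961 probe sets, several for 545, and did not list 1119. All 10 symbols occur in a RefSeq gene table for gorilla (NHGRI_mGorGor1-v2.1), which served for names only, so no coordinates are given.

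Intensities were taken to log2 and quantile normalized over the 12 arrays. The 67 control probe sets were left out of tests, as were probe sets at or under the 40th percentile of the mean log2 value. With limma 3.58.1 (R 4.3.3), linear models with moderated variances were fitted to the 11 standard arrays, one for sex and one for donor age per 10 years that also held sex, and calls were made at a Benjamini-Hochberg adjusted p of 0.05. The 50% confluence array was compared with its pair without a test, and folds come from normalized values. On simulated arrays, the sex fit over 7541 probe sets recovered 53% of changes of 1 log2 unit and 98% of 2.

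The members and lists were chosen with earlier results of these data known. Named genes were all members, up to 4 genes per list that differed by 2-fold or more between both cultures with the brighter value above its array's median, and 3 genes per member by likeness. Other genes were named after their values were seen. Alternatives were the values as deposited, median scaling, a floor of 200, no filter, each line left out, adult donors only, age as a covariate for sex, and the 50% confluence array in place of its pair.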

Additional observations from a re-analysis of the deposited data

Results flagged for a closer look

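Within the male and the female lines, the highest and the lowest array of each member probe set were examined in 28 groups, and 5 stood far from the rest. Chance gives such a gap in about 1 of 20 groups of values that are not cut at a floor. Where all other lines are at the floor, any single higher value makes the largest possible gap, so that rate does not hold there. In 4 of the 5 all other lines of that sex were at the floor of 100. These were VCAM1 in male 5, with 166 on one probe set and 103 on the other, and CD44 with 146 in female 2 on 1125_s_at and 131 in the line labelled female 3 on 31615_i_at. The fifth was CD44 on 40493_at in female 4, at 374, against 775 to 1090 in the other female lines.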

How the results depend on the processing

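limma called 0 probe sets for age under every alternative run and 0 for sex in the reported fit. For sex it called 1 without the line labelled female 3 (0 to 1 over the lines left out) and 2 with the 50% confluence array in place of its pair, and no member was among the calls of any alternative. Probe sets higher by 2-fold or more at 50% confluence numbered 531, against 1314 with median scaling and 253 with a floor of 200. Those lower numbered 545, against 845 as deposited, 231 with median scaling and 283 with a floor of 200. Uncalled sex differences changed sign for CD14 (-0.073) and THY1 (-0.17) with the 50% confluence array, and with single lines left out they ran from -0.18 to 0.83 for CD14, -0.090 to 0.17 for THY1, -0.37 to 0.12 for ICAM1 and -0.026 to 0.36 for ALCAM. Those that kept their sign ran from 0.15 to 0.80 for MME, 0.036 to 0.40 for CD44, -0.32 to -0.15 for ENG and -0.76 to -0.47 for NT5E. Uncalled age slopes changed sign for CD14 in adults (-0.53), for THY1 as deposited (0.0081) and with median scaling (0.052), and for ENG with median scaling (0.028). With single lines left out they ran from -0.078 to 0.33 for MME, -0.086 to 0.055 for THY1, -0.19 to 0.038 for ENG, -0.12 to 0.19 for NT5E and -0.34 to 0.086 for ALCAM. The median SD of the members was 0.47 to 0.51 with single lines left out. With a floor of 200 it was 0.44, and the SD of ICAM1 fell to 0.46 and that of NT5E to 0.21. Values near the floor limit NT5E, ICAM1 and VCAM1. The causes of these changes were not tested.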
